A study of Mus musculus with 12 samples.

Results

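The genes described here encode the enzymes and transporters that take up glucose, break it down to lactate, store it as glycogen or send it through the pentose phosphate pathway. They were chosen by name, by a list of 39 genes, and 35 of the 39 had a named probe set among the 22206 gene probe sets of the array. These were 3 of 3 glucose transporters, 3 of 3 hexokinases, 6 of 7 upper and 5 of 6 lower glycolysis genes, 4 of 4 lactate genes, 4 of 4 genes that control the flow through the pathway, 5 of 7 pentose phosphate genes and 5 of 5 glycogen genes. Gpi1, Eno1, G6pdx and Tkt were not analysed here. Each measured gene was read by 1 probe set.

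RNA was measured in HoxB8-ER cells, mouse myeloid progenitors that an estrogen-dependent HoxB8 protein holds immature and that start to mature towards neutrophils when estrogen is taken away. All cells carried 2 retroviral vectors, 1 with GFP and 1 with mCherry, were sorted for both fluorescent proteins and were collected 24 hours after the switch to medium without estrogen. The 4 groups of 3 arrays (A, B and C) had both mutations, CSF3R_T618I with an empty GFP vector, CEBPA_V314VW with an empty mCherry vector, or 2 empty vectors. CSF3R_T618I is an activating mutation of the receptor for granulocyte colony-stimulating factor, CEBPA_V314VW alters the basic leucine zipper part of C/EBPα, a transcription factor of granulocyte differentiation, and both human genes were expressed from retroviruses on top of the mouse genes. Whether the cells of a group descend from 1 clone is not stated in the sources used here.

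Glycolysis splits glucose into pyruvate, which is either reduced to lactate and exported or burnt in mitochondria. The pentose phosphate pathway takes glucose-6-phosphate off this line and makes NADPH and ribose, and the NADPH feeds the oxidase with which phagocytes make superoxide. Neutrophils have few mitochondria, live mainly on glycolysis, and keep glycogen that they can break down where glucose is scarce.

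All values are log2 RMA values, so that a difference of 1 is 2-fold. They were compared with limma over all gene probe sets, and a gene was called where its Benjamini-Hochberg adjusted p was below 0.05. The median value per array ranged over 6.59 to 6.76 and correlations within a group over 0.987 to 0.995, and having 3 arrays per group limits the precision. CSF3R_T618I replicate C and replicate C of both mutations had the highest background control means (5.25 and 5.27, against 4.98 to 5.11 in the other 10 arrays) and the lowest quality weights (0.325 and 0.486). Of the 35 genes, 22 stood above the 95th percentile of the background controls on every array, and 6 (Pfkm, Aldoc, Eno2, Ldhb, Pdk3 and Gbe1) stood below it on every array. Probe sets of Gapdh, Pgk1, Pgam1, Aldoa, Tpi1, Ldha and Pkm may also read related copies and pseudogenes, so that their values are less certain.

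With CSF3R_T618I against empty vector, the genes that rose code for the glucose transporter family, lactate exit and glycogen breakdown. All 3 listed genes of that family rose, as did the lactate exporter Slc16a3 and the glycogen phosphorylase Pygl. Of the 11 measured enzymes between the hexokinases and pyruvate, 0 were called by limma in that comparison (3 at an unadjusted p under 0.05). Of all gene probe sets 3.74% were called higher and 2.63% lower there, so that 0 of 11 genes is near that share. The leukocyte hexokinase Hk3 fell. With CEBPA_V314VW alone, Slc16a3 and Pygl were lower than with empty vector. The median range of the 4 group means was 0.41 over the 35 genes and 0.28 over all gene probe sets. In RNA from whole cultures, a change in the share of cells that express a gene cannot be told apart from a change in RNA per cell.

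**Figure D1:**
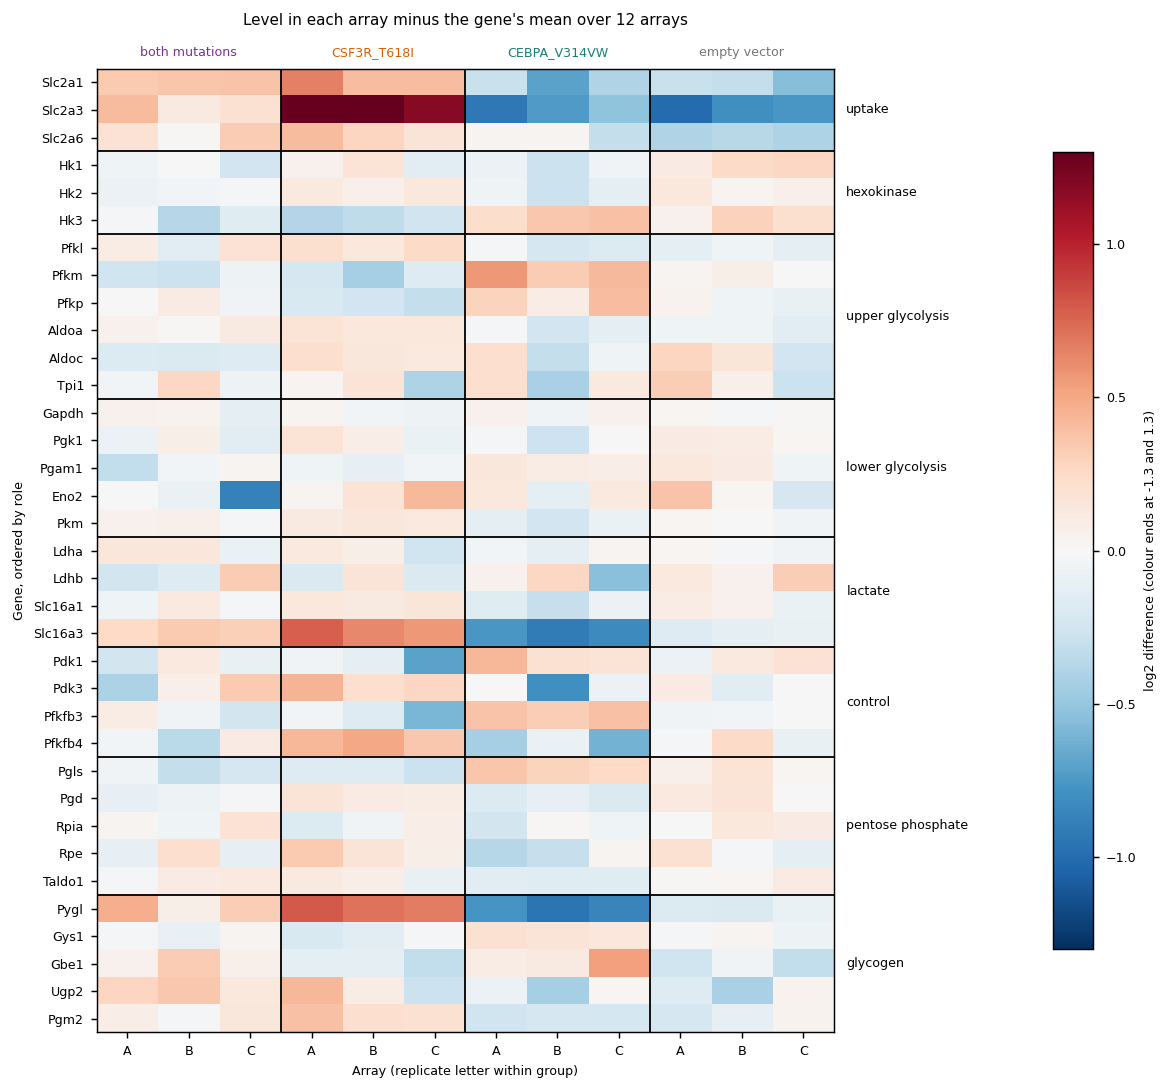
Level of each of the 35 genes (rows, grouped by role) in each of the 12 arrays (columns, A to C within each group) as log2 difference from that gene's mean over all arrays. Slc2a1, Slc2a3, Slc16a3 and Pygl are high in the arrays with CSF3R_T618I, and rows such as Gapdh, between 13.28 and 13.45 on every array, hardly vary.

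The promoter sequences of 3 of the 5 genes that rose with CSF3R_T618I, and of Hk3, which fell, are shown to compare their letters. They run 5′ to 3′ over 250 bases before and 50 bases after an annotated start, from RefSeq (build GRCm38.p6), and capitals mark the core of the hypoxia response element, ACGTG or its complement CACGT, to which hypoxia-inducible factors can bind. Slc2a1 lies at chr4:119108495-119108794 on the + strand, Slc16a3 at chr11:120948817-120949116 on the + strand, Pygl at chr12:70227634-70227933 on the - strand and Hk3 at chr13:55021336-55021635 on the - strand.
Slc2a1: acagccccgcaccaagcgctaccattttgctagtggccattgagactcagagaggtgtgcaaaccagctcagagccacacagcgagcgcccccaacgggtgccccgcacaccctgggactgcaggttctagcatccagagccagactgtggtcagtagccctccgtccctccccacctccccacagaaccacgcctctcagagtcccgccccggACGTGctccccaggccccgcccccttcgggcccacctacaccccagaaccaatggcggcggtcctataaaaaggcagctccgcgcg
Slc16a3: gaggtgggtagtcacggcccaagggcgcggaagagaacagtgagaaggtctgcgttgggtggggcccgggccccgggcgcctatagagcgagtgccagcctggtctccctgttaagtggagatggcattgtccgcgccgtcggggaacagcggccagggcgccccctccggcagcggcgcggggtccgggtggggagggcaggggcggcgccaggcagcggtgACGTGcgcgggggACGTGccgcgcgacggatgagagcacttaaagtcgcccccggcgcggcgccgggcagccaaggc
Pygl: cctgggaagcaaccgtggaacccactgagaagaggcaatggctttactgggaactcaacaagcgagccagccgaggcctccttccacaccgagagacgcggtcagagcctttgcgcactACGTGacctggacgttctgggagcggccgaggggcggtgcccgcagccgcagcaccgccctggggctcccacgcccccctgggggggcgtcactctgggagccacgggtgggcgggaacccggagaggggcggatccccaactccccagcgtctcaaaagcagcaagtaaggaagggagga
Hk3: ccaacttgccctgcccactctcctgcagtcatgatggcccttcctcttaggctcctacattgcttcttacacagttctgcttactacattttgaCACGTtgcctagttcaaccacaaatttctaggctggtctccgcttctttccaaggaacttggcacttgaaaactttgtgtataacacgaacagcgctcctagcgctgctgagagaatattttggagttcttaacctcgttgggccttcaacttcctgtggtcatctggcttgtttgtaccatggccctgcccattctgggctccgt
The capitals begin 36 bases before the start in Slc2a1, 27 and 14 bases before it in Slc16a3, 131 bases before it in Pygl and 156 bases before it in Hk3. Slc2a6, which also rose, had neither ACGTG nor CACGT in its window. Among genes called in no comparison, Hk1, Hk2, Aldoa, Gapdh, Pgk1, Pkm and Ldha had these letters in a window. Others of them, such as Pfkl, Tpi1 and Rpe, did not. RefSeq promoters were matched for 34 of the 35 genes, all but Slc2a3, in 47 windows. The letters ACGTG, on either strand, stood in 46.8% of these windows and in 19.6% of all 32851 windows. The E-box CACGTG, which contains them, stood in 8.51% and 7.15%, the STAT site TTCNNNGAA in 4.26% and 8.3%, the C/EBP half-site pair TTGCNNAA in 10.6% and 10.8%, and the GC box GGGCGG in 66% and 35.7%, each on either strand. The windows of these genes were also richer in G and C, with a median of 61% against 52.67% in all windows, and the part of base composition in these shares was not tested. A match is a match of letters and not a measured binding site.

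Among the glucose transporters, Slc2a3, the high-affinity transporter GLUT3 of neurons and leukocytes, moved most. Slc2a3 read 9.45, 9.16 and 9.24 with both mutations, 10.47, 10.44 and 10.22 with CSF3R_T618I, 8.11, 8.30 and 8.52 with CEBPA_V314VW, and 8.04, 8.24 and 8.28 with empty vector. The arrays with CSF3R_T618I alone stood above all others, those with both mutations came next, and the remaining 6 overlapped. Slc2a3 was 4.57-fold higher with CSF3R_T618I than with empty vector (log2 difference 2.19 ± 0.13 SE, adjusted p = 3.98e-07) and rose by 1.10 ± 0.13 with both mutations against empty vector (adjusted p = 0.000177). With both mutations it was lower than with CSF3R_T618I alone, by -1.10 ± 0.13 (adjusted p = 0.000758). On all 3 arrays with CEBPA_V314VW and all 3 with empty vector Slc2a3 lay below the 95th percentile of the background controls, so that its fold changes were measured against a dim signal.

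Slc2a1, the widespread basal transporter GLUT1, rose in both groups with the receptor mutation. Slc2a1 read 11.48, 11.50 and 11.51 with both mutations, 11.79, 11.54 and 11.55 with CSF3R_T618I, 10.85, 10.45 and 10.75 with CEBPA_V314VW, and 10.85, 10.83 and 10.59 with empty vector. All 6 arrays with the receptor mutation stood above all 6 without it. It rose by 0.87 ± 0.13 with CSF3R_T618I (1.83-fold, adjusted p = 0.000768) and by 0.74 ± 0.13 with both mutations (adjusted p = 0.00289), each against empty vector. Between both mutations and CSF3R_T618I the difference of -0.13 was not called, with a 95% interval of -0.41 to 0.15.

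Slc2a6, which codes for GLUT6, a transporter of the same family, was the third to rise. It read 8.59, 8.42 and 8.73 with both mutations, 8.81, 8.68 and 8.57 with CSF3R_T618I, 8.44, 8.44 and 8.09 with CEBPA_V314VW, and 8.01, 8.04 and 7.995 with empty vector. Every array with a mutation stood above the 3 with empty vector. The rise was 0.67 ± 0.12 with CSF3R_T618I (adjusted p = 0.00468) and 0.56 ± 0.12 with both mutations (adjusted p = 0.0164), and the difference of 0.31 with CEBPA_V314VW was not called (adjusted p = 0.421). The call with both mutations did not hold when replicate A (adjusted p = 0.0640), B (0.0541) or C (0.0602) of empty vector, replicate A (0.0595) or C (0.0700) of both mutations, or the 2 arrays that stood apart (0.0574) were left out. Slc2a6 lay below the 95th percentile of the background controls on all 3 arrays with both mutations, 1 with CSF3R_T618I, 3 with CEBPA_V314VW and 3 with empty vector.

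**Figure D2:**
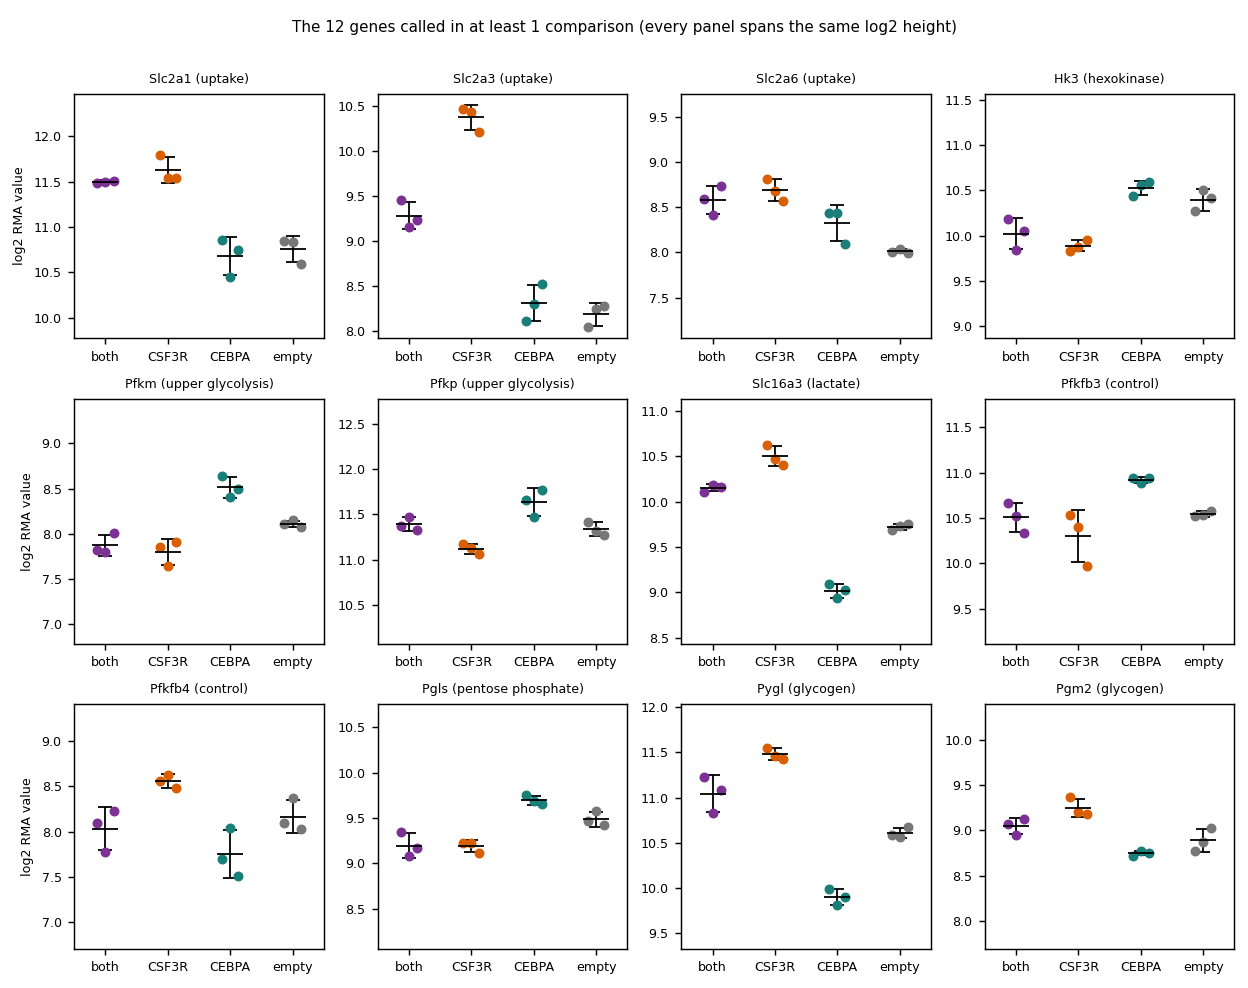
Log2 RMA value in each array (points), with mean and SD over 3 arrays (bars), of the 12 genes called in at least 1 of the 7 comparisons. Groups are both mutations (both), CSF3R_T618I (CSF3R), CEBPA_V314VW (CEBPA) and empty vector (empty), and all panels span the same log2 height, so that the distance of Slc2a3 between CSF3R_T618I (10.22 to 10.47) and empty vector (8.04 to 8.28) can be set against the smaller distances of the other genes.

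Hexokinases trap glucose in the cell as glucose-6-phosphate. Hk3, the isoform best known from leukocytes, moved against the transporters and was lower with CSF3R_T618I. It read 10.18, 9.84 and 10.05 with both mutations, 9.83, 9.88 and 9.95 with CSF3R_T618I, 10.44, 10.56 and 10.59 with CEBPA_V314VW, and 10.27, 10.51 and 10.42 with empty vector. The 6 arrays with the receptor mutation lay below the other 6. The fall was -0.51 ± 0.11 for CSF3R_T618I against empty vector (adjusted p = 0.0161), which no longer passed when any of 4 arrays was left out: replicate A (adjusted p = 0.0607) or B (0.0568) of CSF3R_T618I and replicate B (0.0863) or C (0.0581) of empty vector. With both mutations against empty vector the difference of -0.37 was not called (adjusted p = 0.0885). The ubiquitous Hk1 averaged 10.97 ± 0.13 with both mutations, 11.10 ± 0.16 with CSF3R_T618I, 10.94 ± 0.12 with CEBPA_V314VW and 11.28 ± 0.08 with empty vector (SD, n = 3 each). The inducible Hk2 averaged 9.58 ± 0.03 with both mutations, 9.73 ± 0.04 with CSF3R_T618I, 9.47 ± 0.11 with CEBPA_V314VW and 9.70 ± 0.05 with empty vector. Neither Hk1 nor Hk2 was called in any of the 7 comparisons.

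Of the 6 upper glycolysis genes, the phosphofructokinases Pfkm and Pfkp, which make the committed step of glycolysis, were highest with CEBPA_V314VW. Pfkm, the muscle type, read 7.82, 7.80 and 8.01 with both mutations, 7.85, 7.64 and 7.91 with CSF3R_T618I, 8.64, 8.41 and 8.50 with CEBPA_V314VW, and 8.11, 8.15 and 8.08 with empty vector. The 4 groups lay apart except that the arrays with both mutations overlapped those with CSF3R_T618I. Against CEBPA_V314VW, Pfkm was lower by -0.64 ± 0.11 with both mutations (adjusted p = 0.00264) and by -0.71 ± 0.11 with CSF3R_T618I (adjusted p = 0.000765), while the difference of 0.40 between CEBPA_V314VW and empty vector was not called (adjusted p = 0.113). Pfkm was the 1 called gene below the 95th percentile of the background controls on all 12 arrays.

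Pfkp, the platelet type, read 11.37, 11.47 and 11.32 with both mutations, 11.17, 11.12 and 11.06 with CSF3R_T618I, 11.66, 11.47 and 11.77 with CEBPA_V314VW, and 11.42, 11.32 and 11.27 with empty vector. The CSF3R_T618I arrays were the lowest and those with CEBPA_V314VW mostly the highest. Its 1 call was the fall of -0.52 ± 0.11 for CSF3R_T618I against CEBPA_V314VW (adjusted p = 0.00587). The liver type Pfkl had the opposite order of these groups, at 9.96 ± 0.17 with both mutations, 10.11 ± 0.06 with CSF3R_T618I, 9.78 ± 0.11 with CEBPA_V314VW and 9.82 ± 0.04 with empty vector, and was not called in any comparison (adjusted p = 0.0758 for CSF3R_T618I against CEBPA_V314VW). The aldolases Aldoa and Aldoc and the triosephosphate isomerase Tpi1 were not called either.

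The 5 lower glycolysis genes had 0 calls in the 7 comparisons by limma, and 2 values at an unadjusted p under 0.05. Per comparison and direction, 0.113% to 5.42% of all gene probe sets were called, so that 0 of 5 genes is near these shares. The glyceraldehyde-3-phosphate dehydrogenase Gapdh, often used as a reference gene, averaged 13.39 ± 0.10 with both mutations, 13.37 ± 0.05 with CSF3R_T618I, 13.42 ± 0.06 with CEBPA_V314VW and 13.40 ± 0.03 with empty vector (SD, n = 3 each). Its 6 pairwise differences had 95% intervals within -0.25 and 0.22. The pyruvate kinase Pkm averaged 12.92 ± 0.05 with both mutations, 13.03 ± 0.02 with CSF3R_T618I, 12.74 ± 0.08 with CEBPA_V314VW and 12.89 ± 0.03 with empty vector, and its difference of 0.29 between CSF3R_T618I and CEBPA_V314VW had an unadjusted p of 0.00729 and an adjusted p of 0.0633. The phosphoglycerate kinase Pgk1, the mutase Pgam1 and the enolase Eno2 also passed in 0 comparisons, and Eno2 was at the level of the background controls (4.90 to 6.19). Such values bound a change and do not show that there was none.

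At the lactate end, Slc16a3, the exporter MCT4 of strongly glycolytic cells, separated all 4 groups. It read 10.11, 10.19 and 10.16 with both mutations, 10.63, 10.47 and 10.41 with CSF3R_T618I, 9.09, 8.94 and 9.02 with CEBPA_V314VW, and 9.68, 9.73 and 9.75 with empty vector. No group overlapped another, with CSF3R_T618I highest, then both mutations, empty vector and CEBPA_V314VW. It was 1.72-fold higher with CSF3R_T618I (log2 difference 0.78 ± 0.10, adjusted p = 0.000185) and 1.63-fold lower with CEBPA_V314VW (-0.70 ± 0.10, adjusted p = 0.00117), each against empty vector. With both mutations it rose by 0.43 ± 0.10 over empty vector (adjusted p = 0.0169), which did not hold when replicate A (adjusted p = 0.0801) or B (0.0645) of empty vector or replicate B of both mutations (0.0544) was left out, nor after median centring (0.0519). The difference of -0.35 between both mutations and CSF3R_T618I was not called (adjusted p = 0.124).

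The other lactate genes stayed closer together. Slc16a1, the carrier MCT1, averaged 10.53 ± 0.09 with both mutations, 10.65 ± 0.02 with CSF3R_T618I, 10.34 ± 0.11 with CEBPA_V314VW and 10.54 ± 0.10 with empty vector. The lactate dehydrogenase subunit Ldha averaged 12.30 ± 0.13 with both mutations, 12.22 ± 0.21 with CSF3R_T618I, 12.20 ± 0.08 with CEBPA_V314VW and 12.22 ± 0.04 with empty vector. Neither of these was called in any comparison. Ldhb lay below the 95th percentile of the background controls on all arrays and was not called.

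Among the glycogen genes, Pygl, the liver type phosphorylase that frees glucose units from glycogen, was ordered like Slc16a3. It read 11.23, 10.83 and 11.08 with both mutations, 11.55, 11.46 and 11.42 with CSF3R_T618I, 9.99, 9.81 and 9.90 with CEBPA_V314VW, and 10.58, 10.57 and 10.67 with empty vector. Again no group overlapped another. This order without overlap was found in 2 of the 35 genes, Slc16a3 and Pygl, and in 0.608% of all gene probe sets (135 of 22206). Pygl was 1.83-fold higher with CSF3R_T618I (0.87 ± 0.11, adjusted p = 0.000305) and 1.63-fold lower with CEBPA_V314VW (-0.71 ± 0.11, adjusted p = 0.00414) than with empty vector. With both mutations it was higher than with empty vector by 0.44 ± 0.11 (adjusted p = 0.0423), which was the least stable call. It held without CSF3R_T618I replicate C or replicate B of both mutations, and was gone when any other of the 12 arrays was left out (up to an adjusted p of 0.174, without replicate A of both mutations), when the 2 arrays that stood apart were left out (0.101), after median centring (0.0706) and when these groups were fitted by themselves (0.111).

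Pgm2, of the phosphoglucomutase family, read 9.07, 8.95 and 9.13 with both mutations, 9.37, 9.20 and 9.18 with CSF3R_T618I, 8.72, 8.77 and 8.76 with CEBPA_V314VW, and 8.77, 8.87 and 9.03 with empty vector. Its name is the current RefSeq symbol, and Pgm1 and Pgm2 were swapped between older mouse and human names. Its place among the glycogen genes is therefore uncertain. The 3 arrays with CSF3R_T618I were the highest and the 3 with CEBPA_V314VW among the lowest. It was called for CSF3R_T618I against CEBPA_V314VW, at 0.50 ± 0.10 (adjusted p = 0.00679), and not against empty vector (0.36, adjusted p = 0.0660). The glycogen synthase Gys1, the branching enzyme Gbe1 and Ugp2, which makes the UDP-glucose from which glycogen is built, were called in 0 comparisons. Gbe1 had the largest uncalled difference of these with CEBPA_V314VW, 0.46 against empty vector (adjusted p = 0.187), at a level below the 95th percentile of the background controls.

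Of the 4 genes that set the flow through the pathway, the isoenzyme pair Pfkfb3 and Pfkfb4, which make and degrade the phosphofructokinase activator fructose-2,6-bisphosphate, moved in opposite directions between CSF3R_T618I and CEBPA_V314VW. Pfkfb3, the isoform with the strongest kinase activity, read 10.66, 10.53 and 10.33 with both mutations, 10.53, 10.40 and 9.97 with CSF3R_T618I, 10.94, 10.88 and 10.94 with CEBPA_V314VW, and 10.52, 10.53 and 10.58 with empty vector. The CEBPA_V314VW arrays stood above all others. Pfkfb3 was lower with CSF3R_T618I than with CEBPA_V314VW by -0.62 ± 0.14 (adjusted p = 0.0101), which did not pass when these groups were fitted by themselves (adjusted p = 0.0539). CSF3R_T618I replicate C, an array that stood apart, was the lowest at 9.97, and without it the difference was -0.46.

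Pfkfb4 read 8.10, 7.77 and 8.23 with both mutations, 8.56, 8.63 and 8.48 with CSF3R_T618I, 7.70, 8.04 and 7.51 with CEBPA_V314VW, and 8.10, 8.37 and 8.03 with empty vector. Here the CSF3R_T618I arrays stood above all others. The rise over CEBPA_V314VW was 0.80 ± 0.16 (adjusted p = 0.00430). Pfkfb4 lay below the 95th percentile of the background controls on 1 array with CSF3R_T618I and on all 3 arrays of each other group. The pyruvate dehydrogenase kinases, which hold pyruvate back from the mitochondria, were not called. Pdk1 averaged 8.64 ± 0.19 with both mutations, 8.42 ± 0.36 with CSF3R_T618I, 8.98 ± 0.14 with CEBPA_V314VW and 8.79 ± 0.14 with empty vector, and Pdk3 averaged 7.50 ± 0.38 with both mutations, 7.81 ± 0.12 with CSF3R_T618I, 7.21 ± 0.44 with CEBPA_V314VW and 7.49 ± 0.12 with empty vector.

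Of the 5 measured pentose phosphate genes, Pgls, the lactonase of the oxidative branch, was the one called. It read 9.34, 9.08 and 9.17 with both mutations, 9.23, 9.23 and 9.11 with CSF3R_T618I, 9.75, 9.68 and 9.65 with CEBPA_V314VW, and 9.46, 9.57 and 9.42 with empty vector. The 6 arrays with the receptor mutation lay below the 6 without it. Against CEBPA_V314VW, Pgls was lower by -0.50 ± 0.10 with both mutations (adjusted p = 0.00808, or 0.0508 with these groups fitted by themselves) and by -0.51 ± 0.10 with CSF3R_T618I (adjusted p = 0.00508). The NADPH-making 6-phosphogluconate dehydrogenase Pgd averaged 11.55 ± 0.05 with both mutations, 11.73 ± 0.04 with CSF3R_T618I, 11.45 ± 0.04 with CEBPA_V314VW and 11.71 ± 0.09 with empty vector. Rpia, Rpe and Taldo1 interconvert the sugar phosphates of the non-oxidative branch. They and Pgd were called in 0 comparisons, and for CSF3R_T618I against empty vector the 95% intervals of all 5 genes lay within -0.52 and 0.49.

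**Figure D3:**
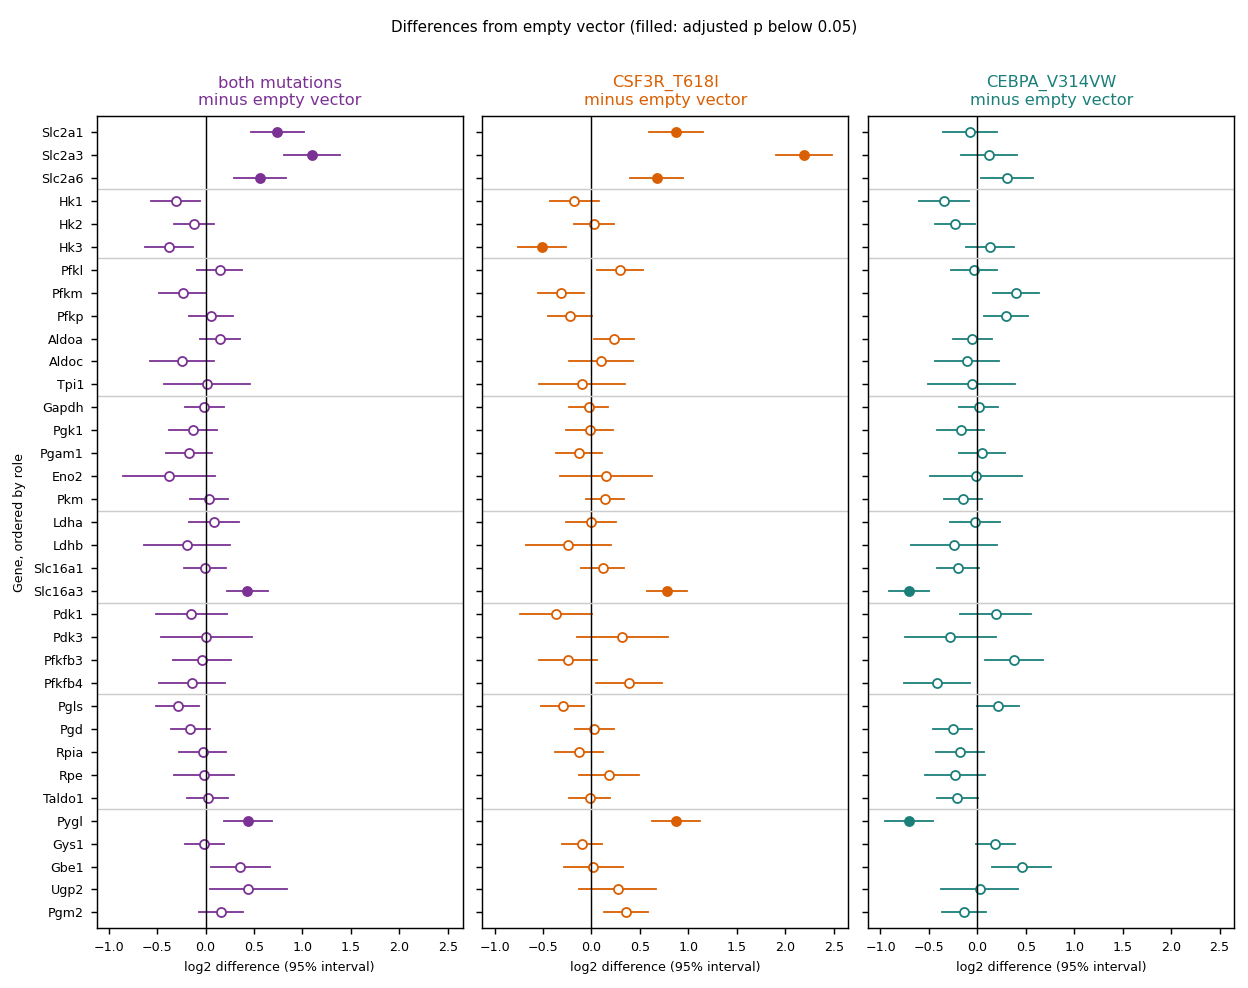
Log2 difference from empty vector (points) with its 95% interval (lines) for the 35 genes, grouped by role, with both mutations, with CSF3R_T618I and with CEBPA_V314VW. Filled points passed at an adjusted p below 0.05, which with CSF3R_T618I are Slc2a1, Slc2a3, Slc2a6, Slc16a3 and Pygl to the right and Hk3 to the left of 0.

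Counted over all roles, CSF3R_T618I against empty vector had 5 genes higher and 1 lower of 35, where 3.74% of all gene probe sets were called higher and 2.63% lower. The 35 genes had a median difference of 0.03 and all gene probe sets one of -0.01. With both mutations against empty vector 5 were higher and 0 lower (7 and 3 at an unadjusted p under 0.05), against 3.16% and 2.3% of all gene probe sets, with medians of -0.01 and -0.03. The 5 that were higher were Slc2a3, Slc2a1, Slc2a6, Pygl and Slc16a3. Both comparisons use the same empty vector arrays. The 5 higher calls with both mutations were 3 when the 2 arrays that stood apart were left out, and between 2 and 5 when any 1 array was.

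CEBPA_V314VW against empty vector had 0 higher and 2 lower (5 and 6 at an unadjusted p under 0.05), where 1.02% of all gene probe sets were called higher and 0.95% lower. The 2 were Pygl and Slc16a3. The median difference of the 35 genes was -0.06, and that of all gene probe sets -0.002.

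Between the groups with mutations, CSF3R_T618I against CEBPA_V314VW had the most calls, 6 higher and 5 lower, against 5.42% and 5.27% of all gene probe sets. Slc2a3 (2.07 ± 0.13, adjusted p = 2.90e-07), Pygl (1.58 ± 0.11, adjusted p = 8.32e-07), Slc16a3 (1.49 ± 0.10, adjusted p = 3.01e-07), Slc2a1, Pfkfb4 and Pgm2 were higher. Pfkm, Hk3, Pfkfb3, Pfkp and Pgls were lower. The count of higher genes was 12 where dim probe sets were left out before the adjustment, with p-values then adjusted over 6151 probe sets. The share of these 6151 called higher is not given here, so that the 12 cannot be set against it.

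Adding the receptor mutation to cells with CEBPA_V314VW gave 4 higher and 3 lower genes in both mutations against CEBPA_V314VW, where 3.56% of all gene probe sets were called higher and 3.08% lower. Slc16a3 and Pygl rose by 1.14 ± 0.10 (adjusted p = 6.39e-06) and 1.14 ± 0.11 (adjusted p = 2.50e-05), Slc2a3 by 0.97 ± 0.13 (adjusted p = 0.000413) and Slc2a1 by 0.82 ± 0.13 (adjusted p = 0.00123). The 3 that fell were Pfkm, Pgls and Hk3, and the call of Hk3 (-0.51, adjusted p = 0.0151) did not hold when replicate B of both mutations (0.0622) or replicate B (0.0510) or C (0.0666) of CEBPA_V314VW was left out, nor with these groups fitted by themselves (0.0681).

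Adding CEBPA_V314VW to cells with CSF3R_T618I gave 0 higher and 1 lower in both mutations against CSF3R_T618I (2 and 6 at an unadjusted p under 0.05), where 0.748% of all gene probe sets were called higher and 0.851% lower. The 1 was Slc2a3. With dim probe sets left out, Slc16a3 (-0.35, adjusted p = 0.0110) and Pygl (-0.43, adjusted p = 0.0128) were also called lower.

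The effect of CSF3R_T618I can be measured in cells with and without CEBPA_V314VW on arrays that are not shared, as both mutations against CEBPA_V314VW and as CSF3R_T618I against empty vector. Across the 35 genes, which are not independent replicates, these effects correlated at r = 0.817 (Spearman's rho 0.867), and across all gene probe sets at r = 0.720. Slc2a1 rose by 0.82 with CEBPA_V314VW and by 0.87 without it, a difference of -0.05 with a 95% interval of -0.44 to 0.34. Hk3 fell by 0.51 in both, and the difference of 0.003 had an interval of -0.34 to 0.35. Slc2a3 rose by 0.97 with CEBPA_V314VW and by 2.19 without it, and this difference of -1.22 ± 0.19 (95% interval -1.63 to -0.81) was the 1 call among the 35 genes (adjusted p = 0.0142).

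The call of Slc2a3 did not hold when replicate B of both mutations (adjusted p = 0.0534), replicate B of CSF3R_T618I (0.0544) or replicate A of empty vector (0.0530) was left out, and its direction was the same in each. It also rests on the groups with CEBPA_V314VW alone and with empty vector, where Slc2a3 was below the 95th percentile of the background controls on all arrays. The size of the difference is therefore uncertain. In this interaction 0.113% of all gene probe sets were called higher and 0.212% lower, and 0 of the 35 genes were higher, with 1 higher and 2 lower at an unadjusted p under 0.05. Slc2a6 had the next largest loss among the transporters, -0.42 (adjusted p = 0.755). Slc16a3 had a difference of the other sign, 0.36 with an interval of 0.06 to 0.65, which was not called (adjusted p = 0.697).

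**Figure D4:**
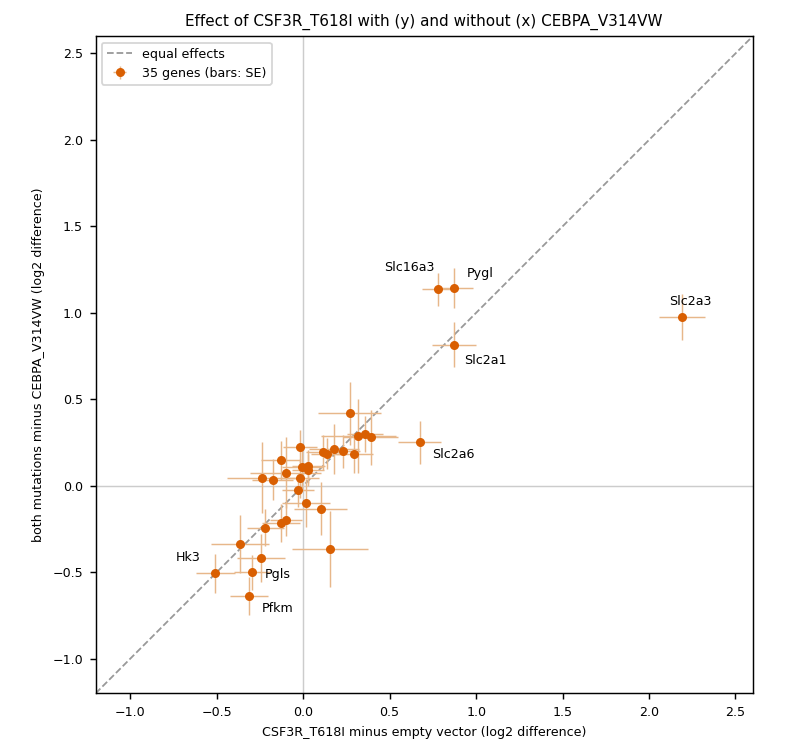
Effect of CSF3R_T618I on each of the 35 genes in cells with CEBPA_V314VW (y axis, both mutations minus CEBPA_V314VW) and without it (x axis, CSF3R_T618I minus empty vector), as log2 differences with standard errors, beside the dashed line of equal effects. Slc2a3 lies far below the line, at 0.97 with CEBPA_V314VW and 2.19 without it, while Slc2a1 lies near it, at 0.82 with CEBPA_V314VW and 0.87 without it.

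The effect of CEBPA_V314VW with and without CSF3R_T618I, as both mutations against CSF3R_T618I and as CEBPA_V314VW against empty vector, correlated at r = 0.466 (Spearman's rho 0.601) across the 35 genes and at r = 0.391 across all gene probe sets. The effect on Slc16a3 was -0.35 with CSF3R_T618I and -0.70 without it, and that on Pygl -0.43 with CSF3R_T618I and -0.71 without it. For Slc2a3 the effect was -1.10 with CSF3R_T618I and 0.12 without it. The value of 0.12 compares groups in which Slc2a3 was below the 95th percentile of the background controls on all arrays. Changes can be compressed there, by an amount that was not measured.

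Altogether 12 genes were called in at least 1 comparison and 23 in none. The pairwise differences of the 23 lay between -0.56 and 0.60, and their 95% intervals between -1.01 and 1.06, the widest of which reached 2.09-fold. The 7 comparisons made 33 calls on these genes.

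Genes next to the pathway were read from lists. Against empty vector, 3.74% of all gene probe sets were called higher and 2.63% lower with CSF3R_T618I. These shares were 3.16% and 2.3% with both mutations, and 1.02% and 0.95% with CEBPA_V314VW. Some counts of the lists, such as 1 of 39 higher with CSF3R_T618I, are near these shares. Of 39 measured further genes of glycolysis, the pentose phosphate pathway and glycogen, 1 rose and 6 fell with CSF3R_T618I against empty vector, with a median difference of -0.02. The one that rose was Gyg, the glycogenin that primes glycogen synthesis (0.53 ± 0.12, adjusted p = 0.0151). G6pc3, the glucose-6-phosphatase whose loss in humans causes neutropenia, averaged 10.97 ± 0.29 with CSF3R_T618I and 11.87 ± 0.14 with empty vector, and fell by 0.90 ± 0.15 (adjusted p = 0.00247). Phka2 and Phkb, subunits of the phosphorylase kinase that activates Pygl, fell by 0.73 ± 0.11 (adjusted p = 0.00122) and 0.86 ± 0.20 (adjusted p = 0.0186). With both mutations Phka2 fell by 0.94 ± 0.11 (adjusted p = 0.000173) and the ADP-dependent glucokinase gene Adpgk rose by 0.61 ± 0.10 (adjusted p = 0.00170), in all 1 up and 3 down of 39. With CEBPA_V314VW 0 rose and 1 fell, Tigar, a fructose-2,6-bisphosphatase (-0.60 ± 0.12, adjusted p = 0.0221), which lay below the 95th percentile of the background controls on all 12 arrays. The carrier gene Slc16a7 and the gluconeogenic gene Fbp1 fell as well with CSF3R_T618I and with both mutations, but Slc16a7 averaged 3.37 to 4.52 and Fbp1 5.01 to 5.78 in the 4 groups, at or under the background control means for Slc16a7 and near them for Fbp1.

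NADPH made from glucose is spent by the phagocyte oxidase and by thiol reduction. Of 14 measured genes of these systems, 7 rose with CSF3R_T618I, 4 with both mutations and 0 with CEBPA_V314VW, each against empty vector. Of all gene probe sets 3.74%, 3.16% and 1.02% were called higher in these comparisons, and 2.63%, 2.3% and 0.95% lower. Cybb, the large subunit of the oxidase, averaged 9.17 ± 0.13 with both mutations, 10.84 ± 0.18 with CSF3R_T618I, 5.98 ± 0.42 with CEBPA_V314VW and 8.04 ± 0.05 with empty vector, and was the 1 that fell with CEBPA_V314VW (-2.06, adjusted p = 2.23e-05). On all 3 arrays with CEBPA_V314VW and all 3 with empty vector Cybb lay below the 95th percentile of the background controls, so that the size of this difference is uncertain. Nqo1, a quinone reductase, rose by 0.87 ± 0.15 with CSF3R_T618I (adjusted p = 0.00310) but lay below that percentile on all 12 arrays. Gclm, of glutathione synthesis, rose by 0.76 ± 0.13 with CSF3R_T618I (adjusted p = 0.00235). Of 13 suppliers of NADPH outside the pentose phosphate pathway 0 rose and 3 fell with CSF3R_T618I (0 and 3 at an unadjusted p under 0.05), namely the isocitrate dehydrogenases Idh1 (-0.47, adjusted p = 0.0343) and Idh2 (-0.44, adjusted p = 0.0216) and the serine hydroxymethyltransferase Shmt1 (-0.48, adjusted p = 0.0312). Of 12 genes for the entry of pyruvate into mitochondria, limma called 0 with either single mutation (at an unadjusted p under 0.05, 4 lower with CSF3R_T618I and 2 lower with CEBPA_V314VW), and with both mutations 1 fell, the pyruvate dehydrogenase subunit Dlat (-0.45, adjusted p = 0.0359).

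Among 19 measured regulators of glycolytic genes, 2 rose and 0 fell with CSF3R_T618I, where 3.74% of all gene probe sets were called higher and 2.63% lower. Hif1a, the hypoxia-inducible factor subunit that is controlled mainly at the protein level, averaged 11.52 ± 0.10 with both mutations, 11.43 ± 0.16 with CSF3R_T618I, 10.41 ± 0.22 with CEBPA_V314VW and 10.38 ± 0.11 with empty vector. It rose by 1.05 ± 0.13 with CSF3R_T618I (adjusted p = 0.000216) and by 1.14 ± 0.13 with both mutations (adjusted p = 0.000117). Txnip, which restrains glucose uptake and is induced by glucose, rose by 0.64 ± 0.11 (adjusted p = 0.00263) and 0.42 ± 0.11 (adjusted p = 0.0453) in these comparisons. With CEBPA_V314VW limma called 0 of the 19 (3 higher and 1 lower at an unadjusted p under 0.05). Of 19 hypoxia-inducible genes outside glycolysis, 4 rose and 2 fell with CSF3R_T618I, with a median of -0.01. Bhlhe40 rose by 1.44 ± 0.12 (adjusted p = 4.81e-06) and Ndrg1 by 1.00 ± 0.11 (adjusted p = 5.08e-05), while the adenylate kinase gene Ak4 fell by 0.73 ± 0.12 (adjusted p = 0.00171), to below the 95th percentile of the background controls on all 3 arrays with CSF3R_T618I.

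**Figure D5:**
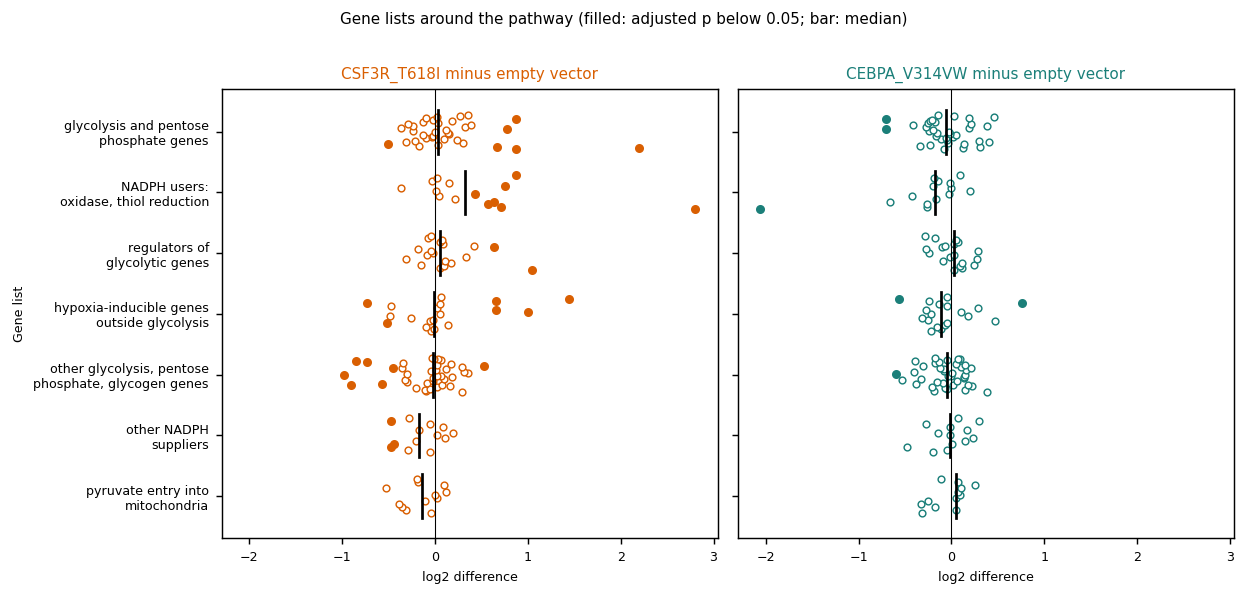
Log2 differences from empty vector of the 35 genes and of 6 neighbouring gene lists, with CSF3R_T618I and with CEBPA_V314VW. Each point is a gene, filled where the adjusted p was below 0.05, and the bar is the list's median, which for the NADPH users stood at 0.32 with CSF3R_T618I and -0.18 with CEBPA_V314VW.

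Markers of maturation moved with the same groups. The mean of 13 mature neutrophil markers lay between 9.78 and 9.97 on the arrays with both mutations, 10.50 and 10.66 with CSF3R_T618I, 7.59 and 7.91 with CEBPA_V314VW, and 8.44 and 8.64 with empty vector, which is the order of Slc16a3 and Pygl, and Retnlg was the 1 marker at the background mean, with CEBPA_V314VW. Of these markers 9 rose and 0 fell with CSF3R_T618I, 1 rose and 10 fell with CEBPA_V314VW, and 8 rose and 3 fell with both mutations, each against empty vector. Of all gene probe sets 3.74%, 1.02% and 3.16% were called higher in these comparisons, and 2.63%, 0.95% and 2.3% lower. The mean of 10 progenitor markers lay between 8.56 and 8.68 with both mutations, 8.56 and 8.85 with CSF3R_T618I, 9.76 and 9.93 with CEBPA_V314VW, and 9.62 and 9.75 with empty vector, which splits the arrays as Slc2a1 and Hk3 do. The part of maturation stage in the changes of the 35 genes was not tested.

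Markers of other cell types were read in the same way, and their counts stand beside the same shares of all gene probe sets. With CSF3R_T618I against empty vector 4 rose and 1 fell of 8 monocyte and macrophage markers, 0 rose and 2 fell of 9 erythroid and megakaryocyte markers, 0 rose and 2 fell of 10 mast cell, basophil and eosinophil markers, and 1 rose and 0 fell of 8 lymphoid markers. With both mutations against empty vector 4 rose and 1 fell of the monocyte and macrophage markers, 0 rose and 1 fell of the erythroid and megakaryocyte markers, 0 rose and 1 fell of the mast cell, basophil and eosinophil markers, and 1 rose and 0 fell of the lymphoid markers. With CEBPA_V314VW against empty vector 1 rose and 1 fell of the monocyte and macrophage markers and 1 rose and 1 fell of the mast cell, basophil and eosinophil markers. Limma called 0 erythroid and megakaryocyte and 0 lymphoid markers in that comparison, where 0 and 1 had an unadjusted p under 0.05. The monocyte and macrophage mean lay between 8.33 and 8.49 with both mutations, 8.25 and 8.35 with CSF3R_T618I, 7.90 and 8.21 with CEBPA_V314VW, and 7.92 and 8.06 with empty vector, so that it was higher in the 6 arrays with the receptor mutation, with Mrc1 at the background mean in all 4 groups. The lymphoid mean lay between 5.77 and 5.95 with both mutations, 5.76 and 5.95 with CSF3R_T618I, 5.55 and 5.84 with CEBPA_V314VW, and 5.50 and 5.56 with empty vector. The erythroid and megakaryocyte mean lay between 7.36 and 7.48 with both mutations, 7.50 and 7.55 with CSF3R_T618I, 7.66 and 7.69 with CEBPA_V314VW, and was 7.74 on the arrays with empty vector. The mast cell, basophil and eosinophil mean lay between 7.48 and 7.61 with both mutations, 7.53 and 7.68 with CSF3R_T618I, 7.54 and 7.74 with CEBPA_V314VW, and 7.79 and 7.81 with empty vector, with Ccr3 at the background mean in all 4 groups. The part of these cells in the changes was not tested.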

How the data were processed

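The deposited table holds log2 probe set values that the authors made with RMA (background correction, normalisation and summarisation) in Affymetrix Expression Console from 12 Clariom S Mouse arrays, with 100 ng of total RNA per array; the RMA settings and the annotation build are not given in the sources used here. RMA makes arrays comparable only if most genes do not shift together, and it compresses changes of dim probe sets. Of 28846 probe sets, 6640 controls were left out. Gene names came from the platform annotation, updated to RefSeq symbols through the gene number. Gpi1, Eno1, G6pdx and Tkt had no probe set named here. The group of each array was taken from its title.

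With R 4.3.3 and limma 3.58.1, the 12 arrays were fitted with a mean for each group (8 residual and 4.51 prior degrees of freedom, median residual SD 0.19), and the 6 pairwise differences and the interaction, the CSF3R_T618I effect with CEBPA_V314VW minus that without it, were tested. The p-values were adjusted by the Benjamini-Hochberg method over 22206 gene probe sets, and a call needed an adjusted p below 0.05. The labels speak of biological replicates but do not say what arrays of one letter share. The p-values set each difference against the spread between these samples, and which sources of variation that spread covers is not known. Values on each array are given by rule for genes called and among the 4 largest rises or falls in any comparison; those of the 3 other called genes, Pfkp, Pfkfb4 and Pgm2, were added after their values were seen. A gene of a neighbouring list could be named, in any comparison, where it was among the 3 largest called changes of its list in at least 1 of the 7 comparisons. The fit was tested on simulated data into which known fold changes had been put. Promoter letters were searched in RefSeq windows of GRCm38.p6. The members, lists and rules were chosen with earlier results of these data known.

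Alternatives were quantile normalisation again, median centring, leaving out dim probe sets (not above the 95th percentile of 23 background controls on at least 3 arrays), the replicate letter as a block, a 2-fold limit, a fit of the 2 groups compared, and leaving out 2 arrays that stood apart or each array in turn.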

Additional observations from a re-analysis of the deposited data

Results flagged for a closer look

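The effect of CSF3R_T618I on the glucose transporter gene Slc2a3 differed between cells with and without CEBPA_V314VW, by a test of the difference itself. The rise was smaller with CEBPA_V314VW, and the difference of the effects was -1.22 on the log2 scale (limma, adjusted p = 0.0142, 3 arrays in each of 4 groups). Its direction was kept in all alternatives run, and it did not pass when replicate B of both mutations (adjusted p = 0.0534), replicate B of CSF3R_T618I (0.0544) or replicate A of empty vector (0.0530) was left out. With CEBPA_V314VW alone and with empty vector, Slc2a3 lay below the 95th percentile of the background controls on all 3 arrays each. RMA compresses changes of dim probe sets, so that the size of this difference is uncertain.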

How the results depend on the processing

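Of the 33 calls on the 35 genes, 9 were at or past 2-fold, so that a 2-fold limit removed 24. Under the other alternatives 25 calls were kept wherever they had a value and 8 were lost under at least 1, and 0 changed direction. The 5 calls of Slc2a6, Pfkm and Pfkfb4 had no value once dim probe sets were left out. The 8 are Hk3, Slc2a6, Slc16a3, Pygl, Pgls, Pfkfb3 and Slc2a3 in the comparisons where the report gives their values, Hk3 in 2 of them. With a 2-fold limit on top, CSF3R_T618I against empty vector had 1 higher and 0 lower, CEBPA_V314VW against empty vector 0 lower, both mutations against empty vector 1 higher, both mutations against CEBPA_V314VW 2 higher and 0 lower, and CSF3R_T618I against CEBPA_V314VW 3 higher and 0 lower. With dim probe sets left out, which leaves 6151 probe sets and 27 of the genes, 2 were lower with CSF3R_T618I and 3 with both mutations against empty vector, 3 were lower with both mutations against CSF3R_T618I, and 12 were higher with CSF3R_T618I than with CEBPA_V314VW. The shares of all probe sets called under the alternatives are not given here. Median centring and leaving out the 2 arrays that stood apart each left 3 higher with both mutations against empty vector, and a fit of the 2 groups alone left 1 lower with both mutations against CEBPA_V314VW. With each array left out in turn, the count was 0 to 1 lower for CSF3R_T618I against empty vector, 2 to 5 higher for both mutations against empty vector, and 0 to 1 lower for the interaction. It was 2 to 4 lower for both mutations against CEBPA_V314VW. For CSF3R_T618I against CEBPA_V314VW it was 6 to 7 higher and 5 to 6 lower. Quantile normalisation again gave 8 higher and 6 lower in that comparison, where the main fit had 6 and 5. The cause of these moves was not tested, but by construction the dim setting adjusted over fewer probe sets, the 2-fold limit added a condition on size, and fewer arrays entered wherever arrays or groups were left out.

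With the replicate letter as a replicate block, no count moved, with 5 higher and 1 lower for CSF3R_T618I against empty vector. Deviations of arrays with the same letter correlated at -0.25 to 0.17, so that the letters were not taken as pairs. Averaging several probe sets of a gene was not run, since each gene had 1. Background signal limits Pfkm, Aldoc, Eno2, Ldhb, Pdk3 and Gbe1.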
